A study of Mus musculus with 2 samples.

Results

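The Calb2-high neurons of the control library were those with less than 100 CPM of *Lypd1* RNA and at least 10000 CPM of *Calb2* RNA, where CPM is a cell's UMIs of a gene per 1000000 UMIs of all genes (UMI: unique molecular identifier, one per captured RNA molecule). The rule took 85 of the 462 control cells, a share of 18.4% (exact binomial 95% interval 15.0 to 22.2, counting error only), out of 869 cells in both libraries. The cells were thus selected on their measured *Calb2* and *Lypd1*, and the levels of both are given only as a description. The cells came from the cochlea of mice, per the labels spiral ganglion neurons, the neurons that carry sound signals from hair cells to the brain. The control genotype, iCON, was Runx1-CreER/+; Ai14/+, which is a tamoxifen-inducible Cre at *Runx1* with the Ai14 tdTomato reporter. The other genotype, iCKO, was Runx1-CreER/Runx1F; Ai14/+, which adds a floxed *Runx1* allele to the same driver and reporter. Both genotypes received tamoxifen on postnatal day 1 and were harvested on postnatal days 27 to 29, and cells of both sexes were sorted for tdTomato, so only cells in which the *Runx1* driver had been active enter the libraries. Each genotype was 1 library, so no test between groups was possible. The number of animals in each is not given in the sources used here, and shares of cell types can be set by the driver and the sort.

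Type I neurons of the spiral ganglion contact inner hair cells and make up nearly all of the auditory nerve. They are grouped as Ia, Ib and Ic by gradients of RNA: type Ia cells carry much calretinin, the calcium-binding protein of *Calb2*, type Ic cells carry *Lypd1* and the transcription factor genes *Runx1* and *Pou4f1*, and type Ib cells lie between and carry calbindin, *Calb1*. Recordings in the auditory nerve link these types to fibres of different spontaneous rate and threshold. In what follows the Calb2-high cells were compared with 180 control cells that had at least 1000 CPM of *Lypd1* (Lypd1-high) and with 139 control cells that had less than 100 CPM of *Lypd1* and from 1000 to under 10000 CPM of *Calb2* (intermediate-Calb2). Another 26 control cells had *Lypd1* between these limits, and 32 had little of either RNA.

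*Calb2* ranged from 10563 to 33740 CPM among the 85 cells, with a median of 21002 and quartiles of 15869 and 25139. The cells nearest the limit were at 10563, 10850 and 11330 CPM inside it and at 9862, 9681 and 9527 CPM outside it. Among these cells the step across the limit was the widest, though small beside the range of the group. A *Lypd1* UMI was found in 23 of the 85 cells, and the highest value was 69.9 CPM. One control cell with 16909 CPM of *Calb2* was kept out by 2111 CPM of *Lypd1*.

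**Figure D1:**
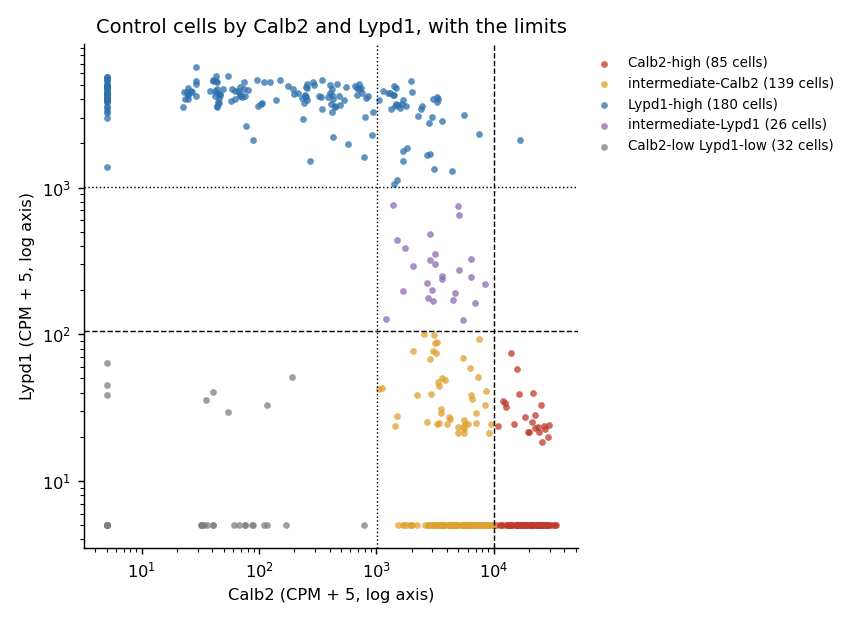
Each point is 1 control cell, placed by its *Calb2* (x) and *Lypd1* (y) RNA in CPM plus 5 on log axes, and lines mark the limits of the rule. The 85 Calb2-high cells sit at the lower right, from 10563 CPM of *Calb2* upward. The 139 intermediate-Calb2 cells lie to their left, up to 9862 CPM.

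The median depth was 55533 UMIs and 7142 genes in Calb2-high cells, with a range of 16168 to 75942 UMIs, against medians of 47778 UMIs in intermediate-Calb2 and 50681 in Lypd1-high cells. Of the Calb2-high cells 55 carried *Xist* and no Y-linked RNA and 28 carried Y-linked RNA and no *Xist*. The same split was 51 and 86 in intermediate-Calb2 cells and 97 and 79 in Lypd1-high cells, so the sexes are mixed unequally. The summed level of the 9 glial marker genes had a median of 3247 CPM (range 0 to 14720) in Calb2-high cells, 4199 (0 to 13980) in intermediate-Calb2 cells and 4325 (0 to 13285) in Lypd1-high cells. At most 5 UMIs over 6 myelin genes were found in 30.6% of Calb2-high cells, 17.3% of intermediate-Calb2 cells and 16.1% of Lypd1-high cells. Dissociation genes, such as *Fos* and *Jun*, had a summed median of 243, 293 and 337 CPM in the same order. Of 6 neuron markers, *Snap25*, a vesicle fusion protein gene, averaged 3043 CPM, *Tubb3*, a neuronal tubulin gene, 1161 CPM, *Uchl1*, a ubiquitin hydrolase gene, 887 CPM, the neurofilament genes *Nefl* and *Nefm* 5352 and 5764 CPM, and *Rbfox3* 29.7 CPM. No cell barcode was shared between the libraries.

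Markers of type Ia that the rule did not use were present in most of these cells and scarce in the intermediate-Calb2 and Lypd1-high cells. These markers were on lists chosen with earlier results of these data known, so their levels are a description, not independent support for the type. *Rxrg* encodes the gamma form of the retinoid X receptor, a nuclear receptor that pairs with other nuclear receptors on DNA. It had a UMI in 73 of 85 Calb2-high cells, 30 of 139 intermediate-Calb2 cells and 5 of 180 Lypd1-high cells, at means of 63.2 ± 50.1, 6.68 ± 16.6 and 0.776 ± 4.71 CPM (SD over cells). Per cell it ran from 0 to 224 CPM in the Calb2-high cells with a median of 61.9, whereas the median was 0 in both other groups. *Trim54*, a ubiquitin ligase gene best known from striated muscle, had a UMI in 59 Calb2-high, 7 intermediate-Calb2 and 3 Lypd1-high cells, at 43.1, 3.55 and 0.544 CPM. *Pcdh20*, a protocadherin adhesion gene, had a UMI in 62, 6 and 12 cells, at 37.2, 2.42 and 1.49 CPM. After each cell was thinned to 20000 UMIs the shares were 72.3%, 9.42% and 2.25% for *Rxrg*, 48.2%, 4.35% and 0.562% for *Trim54*, and 36.1%, 2.90% and 2.81% for *Pcdh20*, so the Calb2-high cells kept the highest share of these 3 groups at equal depth. The 32 control cells with little *Calb2* and *Lypd1* were not low in all of them: after the same thinning *Rxrg* was found in 65.6% and *Pcdh20* in 96.9% of them, whereas *Trim54* had no UMI there before thinning, which allows up to 2.94 CPM over the group (3 counts of 1019992).

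Per cell, at least 1 UMI of each of *Rxrg*, *Trim54* and *Pcdh20* was seen in 37 of the 85 Calb2-high cells, the number that the product of their separate shares also gives, 2 of the 3 in 37, a single one in 9 and none in 2. None of the 3 was seen in 101 of 139 intermediate-Calb2 cells and in 164 of 180 Lypd1-high cells, and the full set in 0 and 1. The type II markers *Th*, *Plk5*, *Prph* and *Etv4* had no UMI in the Calb2-high cells, which allows up to 0.671 CPM over the group (3 counts of 4470290), and *Smad3* had 2 UMIs. *Gata3*, a transcription factor gene on the same marker list, was at 42.3 CPM, close to 39.4 and 29.6 CPM in the other groups. *Mag*, a myelin gene, *Otof* of hair cells, *Cldn5* of endothelium and *Csf1r* of myeloid cells also had no UMI.

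**Figure D2:**
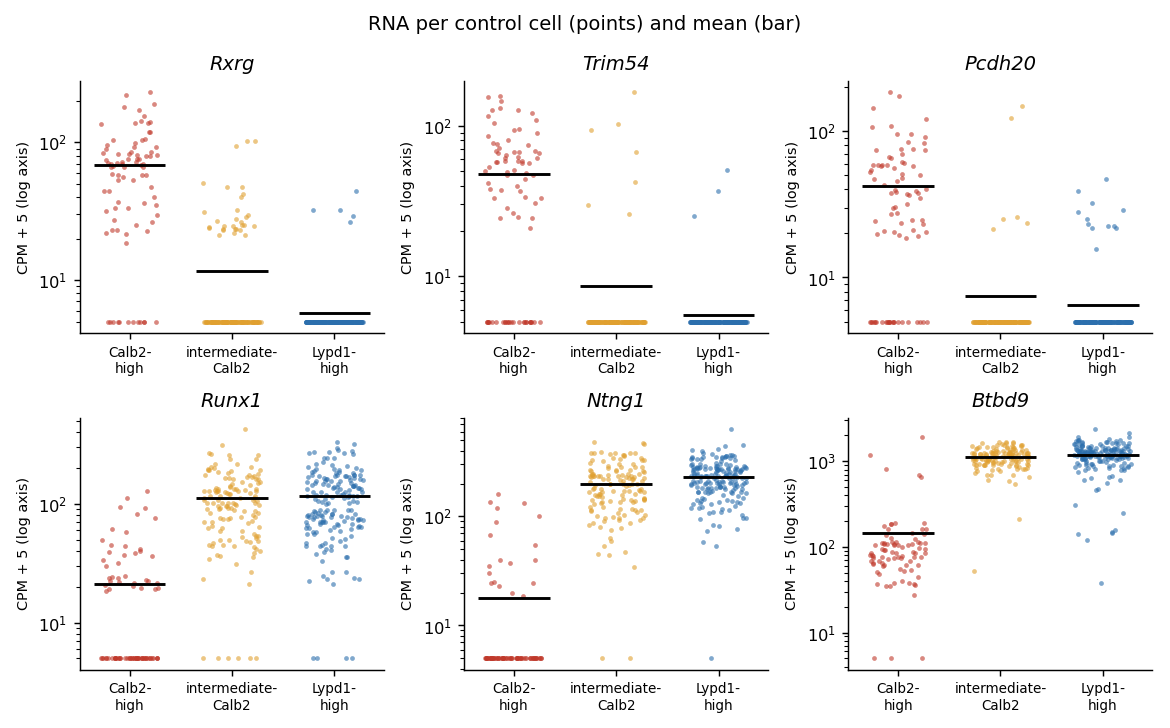
Each point is 1 control cell, the y axis is CPM plus 5 on a log scale and bars are means over cells, for *Rxrg*, *Trim54*, *Pcdh20*, *Runx1*, *Ntng1* and *Btbd9* in the 85 Calb2-high, 139 intermediate-Calb2 and 180 Lypd1-high cells. The first 3 genes are mostly at 0 outside the Calb2-high cells, and the last 3 are lower in them, with a few Calb2-high cells that reach the level of the other groups.

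Across genes the Calb2-high cells were close to the other type I groups, and a small number of genes set them apart. Of 3831 genes with a mean of at least 50 CPM and a UMI in at least 25% of the cells of one group, 37 (0.966%) were at least 2-fold higher than in Lypd1-high cells and 62 (1.62%) at least 2-fold lower. A gene could pass only through the group in which it was high, as *Rxrg* did through Calb2-high and *Grm8* through Lypd1-high cells. The counts of genes past 2-fold therefore depend in part on this minimum. The ratios are of mean CPM with a pseudocount of 5 CPM added to each mean, and their median over all genes was -0.03 on the log2 scale. Against intermediate-Calb2 cells 17 genes (0.444%) were at least 2-fold higher and 34 (0.887%) at least 2-fold lower. Against both groups at once the counts were 15 (0.392%) and 27 (0.705%). The counts of higher genes include *Calb2* and that of genes lower than in Lypd1-high cells includes *Lypd1*, on which the cells were selected. Without them 36 genes were higher and 61 lower than in Lypd1-high cells, and 16 were higher than in intermediate-Calb2 cells. Pearson's r of mean log2 levels across 3829 genes, without *Calb2* and *Lypd1*, was 0.977 with intermediate-Calb2 cells and 0.949 with Lypd1-high cells, and 0.978 between those 2 groups. This is a correlation across genes of 1 library, and genes are not independent replicates.

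**Figure D3:**
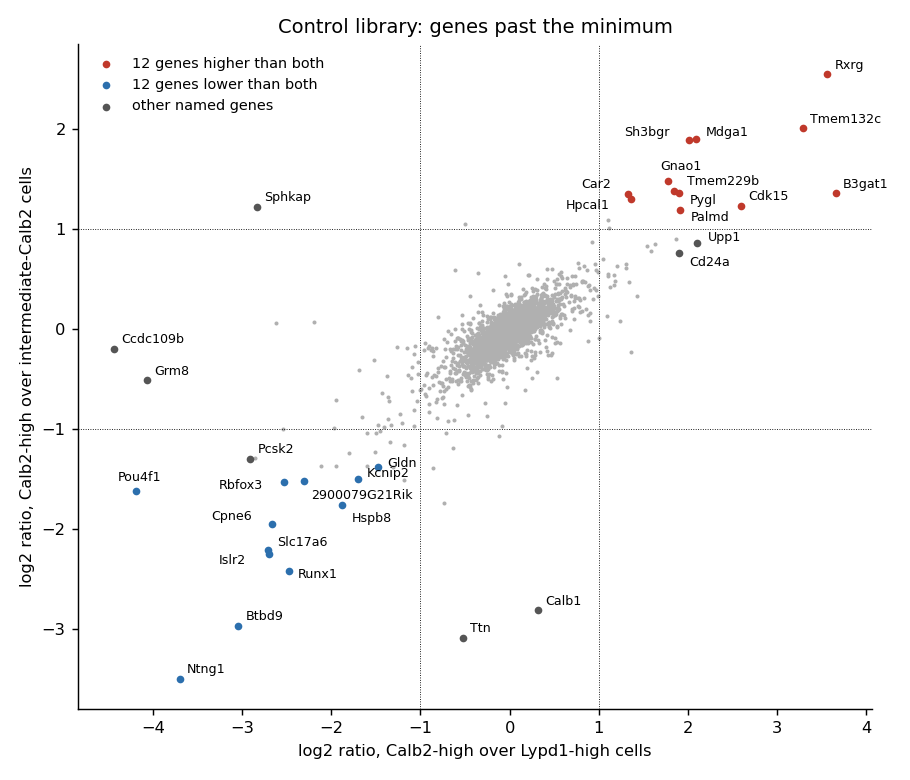
Each grey point is a gene past the minimum in the control library, with its log2 ratio of Calb2-high over Lypd1-high cells (x) and over intermediate-Calb2 cells (y), a pseudocount of 5 CPM, and dotted lines at 2-fold; *Calb2* and *Lypd1* are left out. *Rxrg* is highest on the y axis at 2.55, *Ntng1* lowest at -3.49, and *Calb1* and *Ttn* are at least 2-fold lower against the intermediate-Calb2 cells but not against the Lypd1-high cells.

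The genes higher than in both groups included surface, enzyme and signalling genes. Apart from *Calb2*, *Mdga1*, an immunoglobulin-domain protein that binds neuroligins at synapses, was the most abundant of them. It averaged 914 ± 277 CPM in Calb2-high, 242 ± 192 in intermediate-Calb2 and 210 ± 124 in Lypd1-high cells (SD over cells). Every Calb2-high cell had it, from 266 to 1733 CPM with a median of 908, and the ranges overlapped, with medians of 206 and 192 CPM and highest values of 1807 and 925 CPM in the other groups. Its summed UMIs, relative to all UMIs, were 3.84-fold those of intermediate-Calb2 cells (counting interval 3.62 to 4.07) and 4.18-fold those of Lypd1-high cells (3.96 to 4.42).

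*B3gat1*, whose enzyme makes the HNK-1 sugar epitope of neural adhesion molecules, was highest in Calb2-high, lower in intermediate-Calb2 and lowest in Lypd1-high cells. It stood at 146 ± 66.7 CPM in Calb2-high, 54.2 ± 54.0 in intermediate-Calb2 and 7.02 ± 17.3 in Lypd1-high cells, 18.7-fold over the last (14.6 to 24.3). It had a UMI in 84 of 85 Calb2-high cells, against 103 of 139 and 38 of 180 cells in the other groups. *Cdk15*, a kinase gene of the cyclin-dependent family, had the same shape at 99.99, 39.7 and 12.4 CPM. *Tmem132c*, a membrane protein gene, stood at 55.9, 10.1 and 1.24 CPM, and ranged from 0 to 228 CPM among the Calb2-high cells.

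Most of the other genes separated the Calb2-high cells from both groups about equally. *Sh3bgr*, named for an SH3-binding, glutamate-rich protein, was at 94.7 CPM in Calb2-high, 21.9 in intermediate-Calb2 and 19.7 in Lypd1-high cells. *Gnao1*, the alpha subunit of the Go protein that couples receptors to inhibition of channels and adenylyl cyclase, was at 69.6, 21.8 and 16.8 CPM. *Hpcal1*, a neuronal calcium sensor, was at 51.9, 18.1 and 17.2 CPM. *Car2*, cytosolic carbonic anhydrase, was at 67.8, 23.5 and 24.1 CPM. *Tmem229b* (158, 57.7 and 40.4 CPM), *Palmd* (62.7, 24.7 and 13.02 CPM) and *Pygl*, a glycogen phosphorylase gene (107, 38.6 and 24.99 CPM), completed the 12 genes named for being higher than in both groups. A UMI of *Tmem229b* was in every Calb2-high cell and of *Pygl* in 83 of 85. In the 32 control cells with little *Calb2* and *Lypd1*, *Hpcal1* averaged 643 CPM, *Palmd* 764 CPM and *Gnao1* 80.2 CPM, above the Calb2-high level. The other genes of this paragraph were lower there, with *Tmem229b* at 83.5, *Pygl* at 14.6, *Car2* at 6.91 and *Sh3bgr* at 6.76 CPM.

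Against Lypd1-high cells alone, *Cd24a*, a small glycosylated surface protein gene, was 3.78-fold higher (3.59 to 3.97), at 998, 587 and 264 CPM in Calb2-high, intermediate-Calb2 and Lypd1-high cells. *Zfp804a*, a zinc finger gene, was at 564, 299 and 151 CPM, and *Upp1*, uridine phosphorylase, at 58.6, 30.1 and 9.82 CPM. The intermediate-Calb2 cells lie between the others for all 3 of these genes.

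**Figure D4:**
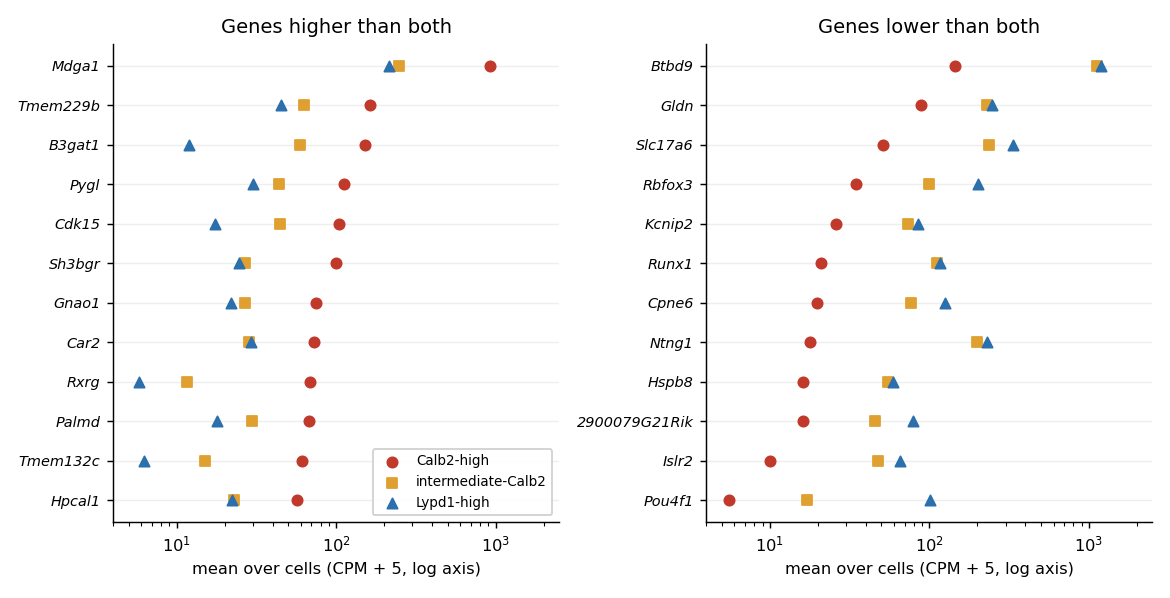
Mean CPM plus 5 over the cells of each group, on a log axis, for the 12 genes named as higher (left) and the 12 named as lower (right) in Calb2-high cells than in both other groups, without error bars. *Mdga1* is the highest of the left panel at 914 CPM in Calb2-high cells, and *Btbd9* of the right panel at 139 CPM in Calb2-high and 1182 CPM in Lypd1-high cells.

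Among the genes lower than in both groups, *Ntng1*, netrin-G1, a membrane-anchored adhesion molecule of synapses, was at 12.7 ± 32.04 CPM in Calb2-high, 195 ± 99.4 in intermediate-Calb2 and 225 ± 86.9 in Lypd1-high cells, 17.3-fold lower than in the last by summed UMIs (13.3 to 22.9). It had a UMI in 19 of 85 Calb2-high cells against 137 of 139 and 179 of 180 cells. *Btbd9*, a BTB-domain gene, was at 139 ± 259, 1122 ± 279 and 1182 ± 369 CPM, with medians over cells of 80.5, 1130.2 and 1199.9 CPM. The wide spread of *Btbd9* came from few cells: 5 Calb2-high cells had 648 to 1909 CPM and the other 80 had 0 to 187 CPM.

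Those 5 cells, singled out after their values were seen, also differed in other genes. All 5 had *Ntng1*, at 84.0 to 154 CPM, and *Runx1*, while the other 80 averaged 6.12 CPM of *Ntng1*, with a UMI in 14. *Rxrg* was found in 2 of the 5 and *Trim54* and *Pcdh20* in 1 each, against 71, 58 and 61 of the 80. Their *Calb2* ran from 10563 to 18972 CPM, below the median of the group.

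*Runx1*, the RUNX-family transcription factor gene that carries the Cre driver here, was at 15.9 ± 25.96 CPM in Calb2-high cells, 107 ± 68.3 in intermediate-Calb2 cells and 112 ± 68.3 in Lypd1-high cells. By summed UMIs it was 6.85-fold lower than in Lypd1-high cells (5.40 to 8.82) and 6.80-fold lower than in intermediate-Calb2 cells (5.34 to 8.77). A UMI was seen in 37 of 85 cells (43.5%), against 133 of 139 and 176 of 180, and thinned to 20000 UMIs in 21.7%, 84.8% and 84.8%. *Pou4f1*, a POU-domain factor of sensory neurons, had 3 UMIs in all Calb2-high cells together and 843 in Lypd1-high cells, 142-fold lower (48.5 to 691), with intermediate-Calb2 cells at 12.03 CPM. *Rbfox3*, the splicing factor gene whose product is the neuronal marker NeuN, was at 29.7, 94.9 and 196 CPM.

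*Slc17a6* encodes VGLUT2, a transporter that loads glutamate into vesicles. It was at 46.5 ± 91.0 CPM in Calb2-high, 232 ± 131 in intermediate-Calb2 and 331 ± 116 in Lypd1-high cells, and had a UMI in 26 of 85 against 135 of 139 and 180 of 180 cells. The related transporter VGLUT1, *Slc17a7*, went the other way, at 668, 523 and 433 CPM, short of 2-fold. *Slc17a6* also differed by sex among the Calb2-high cells, at 97.0 CPM in the 28 cells with Y-linked RNA and 22.4 CPM in the 55 with *Xist*, whose median depths were 55996 and 55607 UMIs. It was lower than in both groups within either sex, with log2 ratios of -3.62 and -3.29 in cells with *Xist* and -1.71 and -1.10 in cells with Y-linked RNA. Sex and animal cannot be told apart here.

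The remaining genes lower than in both groups included *Islr2*, a leucine-rich membrane protein gene of growing axons (5.07, 42.7 and 60.2 CPM), and *Cpne6*, a calcium-dependent membrane-binding copine (14.9, 71.5 and 121 CPM). *Hspb8*, a small heat shock protein gene, was at 11.2, 50.1 and 54.5 CPM. *Kcnip2*, which encodes a calcium-sensing subunit of A-type potassium channels, was at 20.98, 68.3 and 79.7 CPM. The transcript 2900079G21Rik was at 11.0, 40.9 and 74.1 CPM. *Gldn*, gliomedin, a ligand that clusters sodium channels at nodes and is known as a Schwann cell product, was at 83.8, 226 and 241 CPM, 2.81-fold lower than in Lypd1-high cells (2.51 to 3.14). It was lower in Calb2-high than in Lypd1-high cells both among cells with at most 5 myelin UMIs, with a log2 ratio of -2.60, and among cells with more, with -1.17.

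Other genes differed mostly or only against one group. Against Lypd1-high cells, *Ccdc109b*, a subunit gene of the mitochondrial calcium uniporter, had no UMI in Calb2-high cells and was at 103 CPM in Lypd1-high cells, at least 153-fold lower with a floor of 3 counts over the group. *Grm8*, an inhibitory metabotropic glutamate receptor gene, was at 1.07 and 96.6 CPM, *Pcsk2*, a prohormone convertase gene, at 18.7 and 173 CPM, *Cd164l2* at 8.70 and 79.5 CPM, and *Rgs12*, which shortens G protein signals, at 4.82 and 66.1 CPM. *Ccdc109b* and *Grm8* were also scarce in intermediate-Calb2 cells, at 0.725 and 3.63 CPM, whereas *Pcsk2* and *Rgs12* had intermediate levels there, at 53.1 and 19.0 CPM, and were past 2-fold against both groups. *Sphkap*, an anchoring protein of protein kinase A, was lowest in intermediate-Calb2 cells, at 17.5, 4.68 and 156 CPM in Calb2-high, intermediate-Calb2 and Lypd1-high cells. Against intermediate-Calb2 cells the type Ib markers were low: *Calb1* stood at 9.49, 96.6 and 6.59 CPM, *Ttn*, titin, at 11.1, 131 and 18.1 CPM, and *Lrrc52*, a leucine-rich repeat gene, at 2.72, 11.1 and 0.573 CPM. A *Calb1* UMI was in 20 of the 85 Calb2-high cells.

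Of 14 lists of genes by function, 6 held no gene past 2-fold against Lypd1-high cells and 8 held from 1 to 6 such genes, and the counts below stand beside 0.966% of all genes higher and 1.62% lower than in Lypd1-high cells. Of 52 listed transcription regulators 16 passed the minimum, with 2 at least 2-fold higher (*Rxrg* and *Maf*) and 4 lower (among them *Runx1*, *Pou4f1* and *Satb1*) than in Lypd1-high cells. *Maf*, which encodes a leucine zipper factor, was at 247, 176 and 106 CPM in Calb2-high, intermediate-Calb2 and Lypd1-high cells. Of 34 calcium-binding genes 20 passed, and of the 19 without *Calb2*, on which the cells were selected, *Hpcal1* was higher and *Kcnip2*, *Cib2* and *Vsnl1* were lower. *Cib2*, a calcium- and integrin-binding protein gene, was at 169, 354 and 488 CPM. *Pvalb*, the calcium buffer parvalbumin, was level at 3734, 3703 and 3792 CPM.

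Ion channel lists held no gene past 2-fold in either comparison. All 12 potassium channel genes that passed, of 49, lay between -0.73 (*Kcnab2*) and 0.85 (*Kcnk1*) on the log2 scale against Lypd1-high cells. The 7 sodium and HCN channel genes of 17 lay between -0.24 (*Scn1a*) and 0.65 (*Hcn2*), with a median of 0.37 beside -0.03 for all genes, and the 8 calcium channel and pump genes of 31 between -0.91 (*Ryr2*) and 0.50 (*Cacng2*). Of 6 glutamate receptor genes only *Grm8* passed 2-fold, and of 23 genes of vesicle release only *Slc17a6*. *Syt7*, a slow calcium sensor of release, came next among the latter, at 370, 332 and 196 CPM. None of 21 axonal cytoskeleton genes passed 2-fold, and the neurofilament genes *Nefm* (5764, 4262 and 3608 CPM), *Nefh* and *Nefl* were at log2 ratios of 0.68, 0.54 and 0.35 over Lypd1-high cells.

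The other lists gave 1 or 2 genes each, or none. *Neb*, the muscle protein nebulin, was higher than in Lypd1-high cells (161, 127 and 56.8 CPM), 1 of 3 sarcomere genes that passed of 33 listed. *Ngfr*, the p75 neurotrophin receptor, was at 64.8, 39.4 and 23.3 CPM, whereas the receptors *Ntrk2* and *Ntrk3* were at log2 ratios of -0.32 and -0.58. Among 13 G protein genes *Gnao1* was higher and *Rgs10* lower, the latter at 21.6, 47.6 and 98.9 CPM. Among 12 adhesion genes *Mdga1* was higher and *Ntng1* lower, and none of 9 axon guidance genes passed 2-fold. These lists were chosen with earlier results of these data known, and low genes on them, such as *Trim54* and *Pcdh20*, did not pass the minimum.

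The direction of these differences was kept in subsets of the cells that differ in sex and in myelin RNA. All 12 genes named as higher and all 12 named as lower than in both groups kept their direction against each group among cells with *Xist*, with Y-linked RNA, with at most 5 myelin UMIs and with more. The median log2 ratio of the 12 higher genes over intermediate-Calb2 cells was 1.37 in all cells, 1.41 with *Xist*, 1.68 with Y-linked RNA, 1.62 with little myelin RNA and 1.39 with more. That of the 12 lower genes was -1.85, -1.93, -1.98, -1.84 and -1.76. The subsets share no cells within a split, but all come from 1 library, and the direction was fixed by the choice of the genes in the pool.

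Within the Calb2-high cells the level of *Calb2* itself went with some of the same genes. The 43 cells from the median of *Calb2* upward and the 42 below it had *Ntng1* at 0.814 and 24.9 CPM, *Cpne6* at 3.37 and 26.6 CPM, *Btbd9* at 72.9 and 207 CPM and *Slc17a6* at 26.4 and 67.0 CPM. The 5 cells of highest *Btbd9* were all in the lower group, and without them its 37 other cells had *Btbd9* at 93.6 CPM and *Ntng1* at 12.3 CPM, while *Cpne6* was at 26.3 CPM and *Slc17a6* at 52.5 CPM. In all cells, *Rxrg* was at 72.8 and 53.4 CPM and *Trim54* at 51.9 and 34.1 CPM, while *Mdga1* (917 and 912 CPM) and *B3gat1* (150 and 143 CPM) were level. The glial genes *Pmp22* (477 and 932 CPM) and *Mbp* (249 and 464 CPM) were also lower in the upper group, and median depth was higher, at 57073 against 49237 UMIs. Their part in these differences was not tested. Across the 85 cells the genes with the highest Spearman's rho with *Calb2* were *Prdx5*, a mitochondrial peroxidase gene (0.63), *Mpc2*, a subunit of the mitochondrial pyruvate carrier (0.57), and *Cd24a* (0.55), and the lowest were *Pcdh7*, a protocadherin gene (-0.53), and *Kif1a*, an axonal transport motor gene (-0.50), beside a median of 0.011 over 3485 genes. The cells share a library, and rho was 0.34 between *Calb2* and total UMIs and -0.32 between *Calb2* and *Malat1*, an abundant nuclear RNA.

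The 37 Calb2-high cells with a *Runx1* UMI and the 48 without had close levels of *Calb2*, with medians of 20901 and 21077 CPM. *Btbd9* was at 216 CPM in cells with a *Runx1* UMI and 80.2 in cells without, *Ntng1* at 22.6 and 5.09 CPM, *Slc17a6* at 65.5 and 31.8 CPM and *Rbfox3* at 39.5 and 22.2 CPM. The differences in *Btbd9* and *Ntng1* rested on the 5 cells of highest *Btbd9*, which all had a *Runx1* UMI: without them the other 32 cells were at 85.9 CPM of *Btbd9* and 7.66 CPM of *Ntng1*, and at 48.5 CPM of *Slc17a6* and 34.3 CPM of *Rbfox3*. The Ia markers were close, *Rxrg* at 59.8 and 65.9 CPM and *Trim54* at 39.8 and 45.7 CPM. Cells with a *Runx1* UMI were deeper, at a median of 57914 against 50681 UMIs, and held less glial RNA, with *Pmp22* at 488 and 866 CPM. The part of depth and of glial RNA was not tested.

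Ribosomal and non-coding RNAs had the highest variance relative to their mean among the Calb2-high cells. By the Fano factor (variance over mean) of UMIs after 83 of the cells were thinned to 20000 UMIs, the ribosomal RNA transcript *Rn45s* led at 778, from 1747 to 164106 CPM with a median of 4455, beside a median factor of 1.14 over 3488 genes. *Malat1* (242) and *Meg3* (40.0), both long non-coding RNAs, followed, then *Fth1*, ferritin heavy chain (21.4), *Mir6236* (19.7), *Cryab*, a small heat shock protein gene (16.9), *Spp1*, osteopontin (15.5), *Pmp22* (13.6) and *Mt1*, a metallothionein gene (12.6). At equal relative spread this factor is larger for abundant genes, so neither the order nor the distance from the median measures relative spread. *Fth1* ran from 7232 to 26615 CPM, while the less abundant *Btbd9* was at 139 ± 259 CPM. By sex, *Rn45s* was at 18146 CPM in cells with *Xist* and 7374 CPM in cells with Y-linked RNA. *Tmem132c* was at 64.7 and 29.4 CPM, *Rbfox3* at 39.3 and 12.3 CPM and 2900079G21Rik at 14.6 and 4.09 CPM in the same order. *Hpcal1* was at 38.2 and 79.8 CPM, whereas *Mdga1* (897 and 925 CPM) and *Btbd9* (142 and 135 CPM) were close.

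The same limits in the iCKO library took 201 Calb2-high, 52 intermediate-Calb2 and 126 Lypd1-high cells of 407, at a median depth of 34525 UMIs in the first. Of 36 genes at least 2-fold higher than in Lypd1-high cells in the control library, without *Calb2*, 35 had the same direction in iCKO and 19 were again past 2-fold, beside 0.600% of all 3831 genes past 2-fold higher there. Of 61 lower genes, without *Lypd1*, all 61 had the same direction and 32 were past 2-fold (background 0.992%). Against intermediate-Calb2 cells the direction was the same for 15 of 16 higher and 33 of 34 lower genes, with 7 and 14 past 2-fold (background 0.209% and 0.470%). *Rxrg* kept its pattern at 53.9, 13.7 and 5.89 CPM, and *Trim54* at 35.5, 6.96 and 3.18 CPM in the iCKO Calb2-high, intermediate-Calb2 and Lypd1-high cells. *Mdga1* was at 958, 373 and 580 CPM and *B3gat1* at 183, 76.6 and 86.9 CPM, so both were higher in the iCKO Lypd1-high cells than in the control ones. The same limits took unlike cells there: the median *Calb2* of Lypd1-high cells was 4323 CPM in iCKO and 181 CPM in the control library, and its part in the ratios was not tested.

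*Sh3bgr* did not keep its direction against Lypd1-high cells, and stood only slightly above intermediate-Calb2 cells, with a log2 ratio of 0.19. It was at 138, 120 and 168 CPM in the iCKO groups, against 94.7, 21.9 and 19.7 CPM in the control groups. Between the libraries, the Calb2-high cells themselves differed by at least 2-fold in few genes, 4 higher in iCKO (0.109% of 3667 genes) and 2 lower (0.0545%). *Runx1* was at 92.9 CPM in iCKO against 15.9 CPM in control cells, *Calb1* at 136 against 9.49 CPM, *Ntng1* at 76.7 against 12.7 CPM, and *1700026D08Rik* at 59.3 against 21.2 CPM, while *Gm1821* and *Mir6236* were lower. The *Runx1* value counts 3' tags, and whether these tags lie outside the floxed part was not tested, so it checks nothing about the deletion. With 1 library per genotype, genotype and library cannot be told apart.

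**Figure D5:**
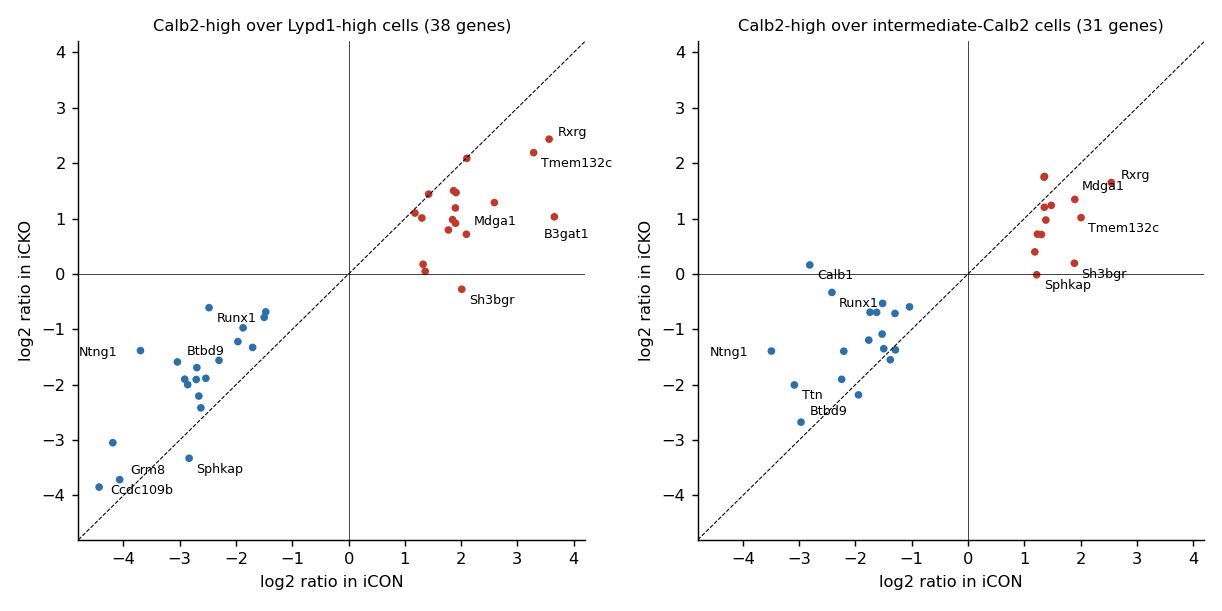
Each point is a named gene at least 2-fold different in the control library, with its log2 ratio in iCON (x) and, by the same limits, in iCKO (y), for Calb2-high over Lypd1-high cells (left) and over intermediate-Calb2 cells (right); the dashed line marks equal ratios. Most points keep their side of 0 and lie nearer to it in iCKO, and *Sh3bgr* at -0.28 on the left and *Calb1* at 0.16 and *Sphkap* at -0.01 on the right cross it.

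The promoter windows of these genes were searched for 2 short motifs, because *Runx1* and *Rxrg* encode DNA-binding factors and are among the lower and the higher genes. A window runs from 250 bases before to 50 bases after a transcript start, from RefSeq on GRCm38.p6. The core motif of RUNX factors was searched as TGTGGT or its reverse complement ACCACA, and the 6-base element of many nuclear receptors as AGGTCA or TGACCT. The RUNX core was in 16.8% of all 32851 windows and 11.5% of windows of genes past the minimum, in 0 of 11 windows of the 9 higher genes that matched and in 1 of 16 windows of the 10 lower genes that matched, that of *Runx1*. The nuclear receptor element was in 16.3% of all windows and 13.3% of those of genes past the minimum, in 4 of 11 windows of the higher genes (*B3gat1*, *Cdk15*, *Pygl* and *Rxrg*) and in 2 of 16 windows of the lower genes, which overlap and hold the same copy near 2900079G21Rik. By gene, these are 4 of 9 higher and 1 of 10 lower genes, beside 4900 of all 27025 genes and 479 of the 2939 past the minimum. The windows with a match are shown for the higher genes and for *Runx1*, since these are the places the counts rest on. A match is a description of the sequence, not a binding site.

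The 4 windows with a nuclear receptor element and the *Runx1* window with 2 copies of the RUNX core read as follows, 5′ to 3′ on the strand of the gene, with the motif in capitals and its offset from the start.
*Rxrg*, chr1:167618015-167618314, plus strand, offset -88: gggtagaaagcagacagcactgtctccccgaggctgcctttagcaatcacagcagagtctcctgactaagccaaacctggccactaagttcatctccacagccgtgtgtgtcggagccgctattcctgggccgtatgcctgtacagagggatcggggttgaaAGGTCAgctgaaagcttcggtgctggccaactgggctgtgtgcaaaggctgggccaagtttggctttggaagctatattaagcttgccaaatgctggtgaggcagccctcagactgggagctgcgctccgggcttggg
*B3gat1*, chr9:26751312-26751611, plus strand, offset -36: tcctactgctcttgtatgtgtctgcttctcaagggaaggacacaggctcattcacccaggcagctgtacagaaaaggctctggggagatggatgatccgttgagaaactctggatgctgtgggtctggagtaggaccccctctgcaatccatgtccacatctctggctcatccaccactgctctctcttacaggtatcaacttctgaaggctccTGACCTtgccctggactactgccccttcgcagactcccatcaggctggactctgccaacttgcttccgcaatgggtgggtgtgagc
*Cdk15*, chr1:59256656-59256955, plus strand, offset -18: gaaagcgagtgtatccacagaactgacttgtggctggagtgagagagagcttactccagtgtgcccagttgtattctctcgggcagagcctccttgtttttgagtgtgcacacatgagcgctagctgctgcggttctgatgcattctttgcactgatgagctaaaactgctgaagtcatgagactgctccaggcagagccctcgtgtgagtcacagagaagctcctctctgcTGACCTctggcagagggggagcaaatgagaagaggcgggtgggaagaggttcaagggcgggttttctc
*Pygl*, chr12:70227634-70227933, minus strand, offset -128: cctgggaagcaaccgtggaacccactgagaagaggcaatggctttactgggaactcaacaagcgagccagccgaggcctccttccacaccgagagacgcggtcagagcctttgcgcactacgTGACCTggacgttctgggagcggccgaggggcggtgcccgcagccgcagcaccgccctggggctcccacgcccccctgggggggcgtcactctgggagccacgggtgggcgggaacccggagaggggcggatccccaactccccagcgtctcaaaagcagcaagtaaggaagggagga
*Runx1*, chr16:92826025-92826324, minus strand, offsets 28 and 36: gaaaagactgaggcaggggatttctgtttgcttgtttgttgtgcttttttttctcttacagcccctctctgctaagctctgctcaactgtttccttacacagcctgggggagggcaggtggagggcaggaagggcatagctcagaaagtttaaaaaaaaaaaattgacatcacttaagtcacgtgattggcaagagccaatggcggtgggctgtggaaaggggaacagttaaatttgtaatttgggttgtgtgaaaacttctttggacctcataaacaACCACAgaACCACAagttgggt
The *Rxrg* window belongs to the second of its 2 listed starts and the window of its first start held neither motif. The *B3gat1* and *Pygl* windows lie inside the annotated genes, whose 5′ ends are at 26733728 on chromosome 9 and 70231488 on chromosome 12. The *Runx1* window is that of the distal of its 2 listed starts, and in it the copies lie after the start, in the transcribed part.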

How the data were processed

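RNA of single spiral ganglion neurons was measured in 2 libraries with the 10x Genomics 3′ assay v3, per the labels' protocols. Cell Ranger, Seurat and the mouse build mm10 are named in the submitters' processing notes, without versions. The authors deposited the natural log of 1 plus CPM per cell, for 14425 genes and 869 cells, and a deposited annotation of another kind, text labels that assign each cell to a library. The unit was settled from the values: linear values summed to 1000000 in every cell, and 100% of nonzero values were whole multiples of the cell's step within 1e-06, so UMIs were recovered. These totals leave out any gene that the table does not list.

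From these values means over cells, sums of UMIs and log2 ratios with a pseudocount of 5 CPM were computed with Python 3.11.15, numpy 2.4.6, scipy 1.17.1 and pandas 2.3.3. A fold with an interval is the ratio of summed UMIs. Intervals are exact at 95% and cover counting error only. With 1 library per genotype no test was run. Cells are not replicates. A count of 0 was given a floor of 3 counts. The ratio script was tested on simulated data.

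The members, lists and the rule for named genes were chosen with earlier results of these data known. Among genes past the minimum of 50 CPM and 25% of cells, the rule takes the 12 highest and 12 lowest ratios over Lypd1-high cells, the 10 highest and 10 lowest over intermediate-Calb2 cells, the 12 genes higher and 12 lower than in both, the 10 highest Fano factors, the markers and up to 4 genes per list. The text gives most of these singly and other cell types' markers partly as sums. *Calb2*, *Lypd1* and sex-linked genes were left out of the rule, and 1 gene that it names and 1 outside it are not reported here. Genes outside the rule, chosen after their values were seen, are *Satb1*, *Vsnl1*, *Slc17a7*, *Syt7*, *Pvalb*, *Nefh*, *Kcnab2*, *Kcnk1*, *Scn1a*, *Hcn2*, *Ryr2*, *Cacng2*, *Ntrk2*, *Ntrk3*, *Prdx5*, *Mpc2*, *Pcdh7*, *Kif1a* and the genes that differ between libraries. Gene lists came from 26 lists of 529 genes, 448 of them in the table. Doublets were called with Scrublet in scanpy 1.11.5 and kept, as 2 of 462 control cells were called, 0 of them Calb2-high. With so few calls this is a weak check. Coordinates of promoters are those of RefSeq on GRCm38.p6.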

Additional observations from a re-analysis of the deposited data

Results flagged for a closer look

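*Sh3bgr* stood out because its effect had opposite signs in the libraries. The log2 ratio of Calb2-high over Lypd1-high cells was 2.01 in the control library and -0.275609 in the iCKO library by the same limits. The difference was not tested, with 1 library per genotype.

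Markers of type Ia were also seen in control cells that enter no comparison, the 32 cells under the limits of both *Calb2* and *Lypd1*. *Rxrg* averaged 65.7864 CPM there, close to 63.2 CPM in the Calb2-high cells, and *Pcdh20* averaged 262.872 CPM against 37.2 CPM. *Trim54* had no UMI in them. The same 32 cells held the type II markers *Th* (414 CPM), *Plk5* (385 CPM), *Prph* (152 CPM) and *Gata3* (689 CPM), but no UMI of the other genes on that list, *Etv4* and *Smad3*, and 31 of them carried *Xist*.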

How the results depend on the processing

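No paired analysis was possible because each genotype is 1 library. Of 72 log2 ratios of named genes, each recomputed under 14 settings, 1004 of 1008 values kept their direction, and within the control library 935 of 936. The choice of extreme genes in the same cells largely fixed this, and another pseudocount cannot reverse a ratio. In size, 538 of the 1008 values, 477 of 936 within the control library, lay outside the counting interval of the ratio of summed UMIs. That interval has no pseudocount and the values have one, so this count does not measure dependence on processing alone. The main *Rxrg* ratio over Lypd1-high cells, 3.56, lay outside its own interval of 5.25 to 7.64. With summed UMIs of the same cells, 24 of 72 values lay outside. The exceptions were, by the same limits in iCKO, *Sh3bgr* over Lypd1-high cells (-0.28) and *Sphkap* (-0.0143) and *Calb1* (0.16) over intermediate-Calb2 cells, and in cells with *Xist* *Hsd17b14* over intermediate-Calb2 cells (0.14). The cause was not tested.

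Counts of genes past 2-fold moved more. The 37 higher and 62 lower than in Lypd1-high cells became 106 and 180 with no filter on low values, 76 and 129 at a minimum of 20 CPM and 10% of cells, 24 and 39 with the *Calb2* limit at 5000 CPM, and 20 and 38 in iCKO, where the minimum was applied to the iCKO cells and 3862 genes passed. The 17 higher and 34 lower than in intermediate-Calb2 cells became 46 and 74 with no filter, 33 and 55 at the lower minimum, 9 and 12 at the 5000 CPM limit, 7 and 14 in iCKO, and 11 and 18 with a pseudocount of 20 CPM. With the limit at 20000 CPM, 55 were lower than in intermediate-Calb2 cells. The number of Calb2-high cells was 146 at 5000 CPM, 46 at 20000 CPM, 55 with *Xist*, 28 with Y-linked RNA and 26 with little myelin RNA. The share with a *Runx1* UMI was 21.7% after thinning.

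Differences between animals and preparations are not covered by any interval here, and values of genes with few UMIs, such as *Pou4f1* with 3, are set by few molecules.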
